A study of Mus musculus with 6 samples.

Results

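The membrane adenylate cyclases are the enzymes that make cAMP from ATP at the plasma membrane, and mouse cells can draw on 9 of them, encoded by Adcy1 to Adcy9. These 9 genes were taken by their symbols from a deposited RNA sequencing table of 26231 genes, and all 9 were in it. RNA came from mouse embryonic fibroblasts (MEFs) of FVB mice with Nf2fl/fl alleles, in which loxP sites flank part of Nf2, the gene for the tumor suppressor Merlin. The embryos were about 14 days old by the labels, and the cells had been immortalized with SV40 large T antigen. One group of 3 libraries came from cells given a vector-control GFP lentivirus (MEF Nf2fl/fl, labelled MEF WT (control)), and the other 3 came from cells given a Cre GFP lentivirus driven by the CMV promoter (MEF Nf2-/-, labelled MEF Nf2 KO). They are called control and Nf2 KO libraries below, after their labels. Both groups grew in medium with 10% fetal bovine serum and then spent 24 h without serum before RNA extraction. Each group is a single transduced line, so Nf2 genotype and line cannot be told apart, and the sources do not say that replicates were separate cultures. All p-values therefore measure the spread between these libraries, which may be technical.

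All 9 enzymes are switched on by the stimulatory G protein Gs, which receptors for hormones, prostaglandins and adenosine engage. They differ in what else they sense. Adcy1, Adcy3 and Adcy8 are grouped as the forms that Ca2+ and calmodulin stimulate, Adcy5 and Adcy6 as the forms that Ca2+ and the inhibitory Gi subunits restrain, Adcy2, Adcy4 and Adcy7 as the forms that G protein beta-gamma subunits stimulate alongside Gs, and Adcy9 stands alone as the form least sensitive to forskolin. Adcy1, Adcy5 and Adcy8 are best known from neurons or heart, while Adcy6 is widespread, and in fibroblasts cAMP is known for restraining proliferation and myofibroblast change.

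Values are RPKM, reads scaled to exon length and to library size, so levels of different genes can be set side by side. Depth, worked out from the step between low values, was 13462403, 18964925 and 61238734 reads in control replicates 1 to 3 and 18088655, 19288132 and 73093047 reads in Nf2 KO replicates 1 to 3. Nf2 RNA itself was at 13.7 ± 0.583 RPKM in the controls, and 14.1 ± 1.27 RPKM in the Nf2 KO libraries (SD, n = 3 each), so this gene-level value does not separate the lines, and a deletion of part of the gene need not change it. Replicate 2 of both lines stood apart from the other 4 libraries on the first principal component, which held 50.3% of the variance, and the lines separated on the second, with 32.8%. Fibroblast markers were present in both lines, with a summed level of 1855 to 2554 RPKM in the controls, and 1444 to 1876 RPKM in the Nf2 KO libraries. Of the 10 fibroblast markers, 3 (Pdgfra, Dcn and Fn1) were lower in Nf2 KO by limma's test, where 1.06% of all genes tested were called. With the replicate block described below 5 were lower, where 7.53% of all genes were called and 4.54% were called lower. Dcn passed the filter on low values, also described below, only through the control libraries, where it was high. Vim was the highest marker at 536 to 882 RPKM, and Lum stayed under 1 RPKM in every library. The sum rested mostly on Vim, Col1a1 and Fn1, while Dcn was at 1.60 to 4.01 RPKM in the controls against 0.0266 to 0.133 RPKM in the Nf2 KO libraries and Pdgfra at 5.22 to 12.3 RPKM against 0.657 to 1.42 RPKM. The part of these marker differences in the results below was not tested. Markers of macrophages summed to at most 8.26 RPKM, of skeletal muscle to 6.73, of glia to 2.29, of endothelium to 4.45 and of epithelium to 0.960, led by Cd68, Acta1, Aldh1l1, Kdr and Krt18. No marker of these lists passed the test, and none was at 0 in every library. In bulk RNA, fewer cells of a type and less RNA per cell cannot be told apart.

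Adcy6 carried most of the family in every library. Its share of the summed RPKM of the 9 genes was 65.5%, 67.4% and 64.1% in control replicates 1, 2 and 3, and 75.7%, 77.1% and 72.6% in the Nf2 KO libraries. The shares of the lines did not overlap, with 65.7% ± 1.64 against 75.2% ± 2.31 (SD, n = 3 each), and an exact permutation test of 3 against 3 cannot go below p = 0.1. Adcy3 followed with a mean share of 15.5% over the 6 libraries, Adcy7 with 7.32%, Adcy9 with 3.69% and Adcy2 with 2.15%. Adcy1, Adcy8, Adcy5 and Adcy4 had mean shares of 0.505%, 0.212%, 0.170% and 0.0237%. The order of these low forms differed by line, since in the controls Adcy1 had a mean share of 0.0751%, below Adcy5 with 0.235% and Adcy8 with 0.152%, and in the Nf2 KO libraries 0.935%, above both.

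**Figure D1:**
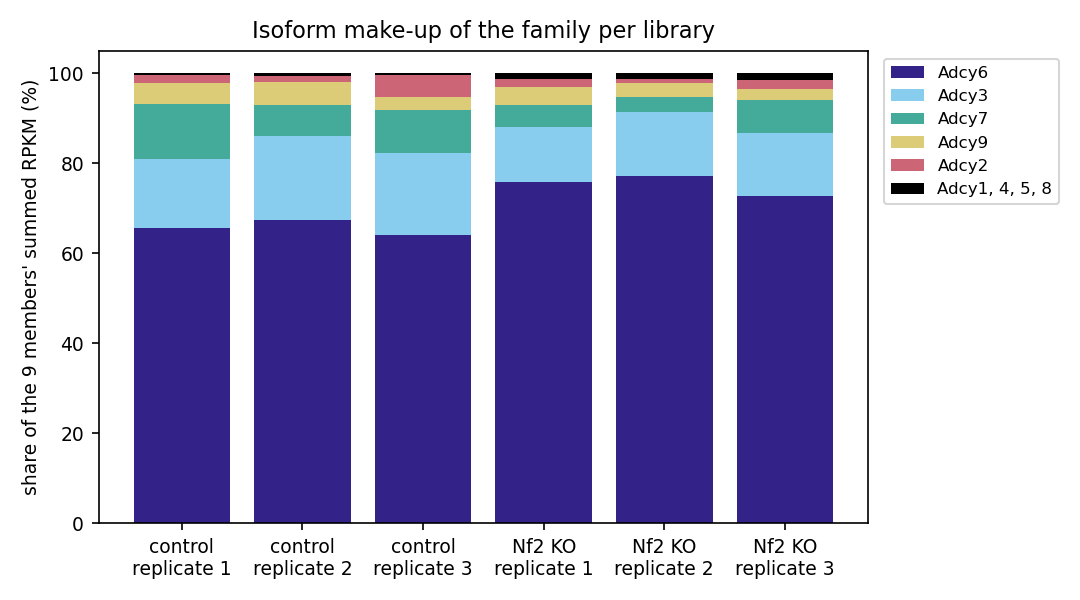
Share of each isoform in the summed RPKM of the 9 membrane adenylate cyclases (percent, stacked bars), for each of the 6 libraries. Adcy6 takes 64.1% to 77.1% of each bar, and its part is larger in each of the 3 Nf2 KO libraries than in each control library.

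The order Adcy6, Adcy3, Adcy7, Adcy9 held in all 6 libraries. Adcy9 exceeded Adcy2 in 5 of 6 libraries, the exception being control replicate 3, and Adcy2 exceeded Adcy1 in all 6. Lower down the order was loose, since Adcy1 exceeded Adcy8 in 3 of 6 libraries and Adcy8 exceeded Adcy5 in 4 of 6. Only 2 pairs of neighbors had ranges that did not meet over the 6 libraries, Adcy6 with Adcy3 and Adcy5 with Adcy4. Against all 26231 genes, Adcy6 ranked 2628 by mean RPKM and Adcy3 ranked 7600, while Adcy1 ranked 14850.

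**Figure D2:**
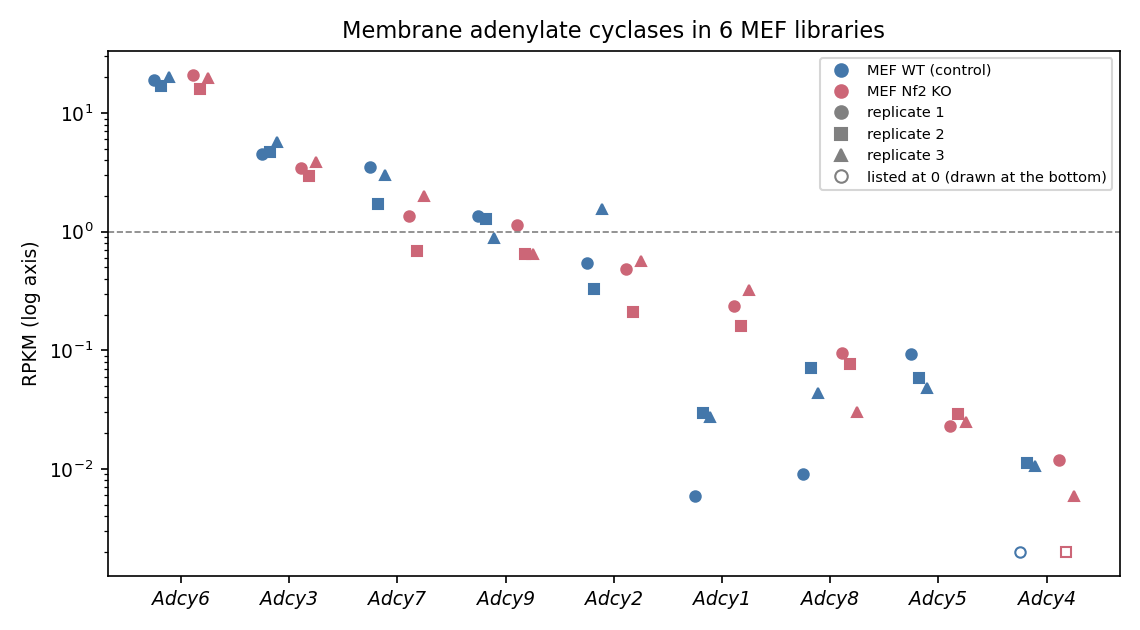
RPKM of the 9 isoforms in each library (log axis), with symbols for replicates and colors for lines, open symbols for values listed at 0 and a dashed line at 1 RPKM. Levels run from 21.1 RPKM for Adcy6 down to 0 for Adcy4, and Adcy1 is the isoform whose lines lie farthest apart.

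The summed level of the family was 28.5 ± 3.23 RPKM in the controls, and 25.3 ± 3.87 RPKM in the Nf2 KO libraries (SD, n = 3 each), and the lines overlapped. Without Adcy6, the other 8 genes summed to 9.82 ± 1.57 RPKM and 6.33 ± 1.40 RPKM, which was 34.3% and 24.8% of the family. The Ca2+-inhibited forms, almost wholly Adcy6, were level at 18.8 ± 1.67 and 19.0 ± 2.59 RPKM. The Ca2+/calmodulin-stimulated forms summed to 5.03 ± 0.690 and 3.72 ± 0.510 RPKM, and the beta-gamma-stimulated forms to 3.55 ± 1.33 and 1.77 ± 0.840 RPKM. These sums are descriptions without a test.

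Differences between lines were tested gene by gene with limma on log2(RPKM + 1), over the 11067 genes that reached 1 RPKM in 3 or more libraries, at a Benjamini-Hochberg adjusted p under 0.05. Of the 9 cyclases, 4 entered this test (Adcy6, Adcy3, Adcy7 and Adcy9) and 5 fell under the filter. None of the 4 passed with limma, where 1.06% of all genes tested were called, and 2 had an unadjusted p under 0.05, as had 1097 of the 11067 genes. Same-numbered replicates of both lines deviated together across genes, so the number was also added to the model as a block. With that block, 2 of the 4 passed, Adcy3 and Adcy7, both lower in the Nf2 KO libraries, where 7.53% of genes were called in either direction and 4.54% were called lower. Both calls were lost when the block was fitted with no filter on low values (adjusted p in limma 0.214 for Adcy3 and 0.241 for Adcy7). The share of all genes called in that fit was not counted, so the loss may not be particular to these 2 genes. The median log2 fold change of the 4 was -0.35, against -0.0078 over all genes tested. Fold changes on the log2(RPKM + 1) scale understate changes of genes near 1 RPKM.

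Adcy6, the main isoform, lies on the minus strand of chromosome 15 (GRCm38, 98589973 to 98610076). Its levels were 19.1, 16.9 and 20.1 RPKM in the controls, and 21.1, 16.1 and 19.8 RPKM in the Nf2 KO libraries, on 1741 to 9820 reads per library. The lines overlapped, and replicate 2 was the lowest in both. The means were 18.7 ± 1.67 and 19.0 ± 2.59 RPKM (SD, n = 3 each). The log2 fold change was 0.02 (SE 0.13, 95% interval -0.29 to 0.32, adjusted p = 0.996 with limma), and with the replicate block the interval was -0.15 to 0.19 (adjusted p = 0.903 with limma). Adcy6 overlaps exons of the opposite-strand Gm29331 and shares 8.28% of its 31-base stretches with other genes.

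Among tested genes, Pcdhb22 and Zfp113 followed Adcy6 most closely over the 6 libraries. Pcdhb22, a protocadherin gene, had a Pearson r of 0.995 with Adcy6 on log2(RPKM + 1), as had Zfp113. Among the cyclases, Adcy7 had 0.506, Adcy3 0.277 and Adcy9 0.134. These are descriptions over 6 libraries that share the replicate 2 difference.

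Adcy3, the cyclase of the olfactory cilium and also of many other cell types, lies on the plus strand of chromosome 12 (GRCm38, 4133103 to 4213525). Its levels were 4.48, 4.68 and 5.74 RPKM in the controls, and 3.42, 2.96 and 3.87 RPKM in the Nf2 KO libraries. Every Nf2 KO library was below every control library, and each was below the control of its own number. The means were 4.97 ± 0.675 and 3.42 ± 0.453 RPKM (SD, n = 3 each), a ratio of 0.687. The log2 fold change was -0.43 (SE 0.13, adjusted p = 0.252 with limma), and the replicate block brought the adjusted p to 0.0281 in limma (SE 0.073). Without replicate 2 of both lines it was -0.39 (adjusted p = 0.219 with limma, no block). Of the 4 tested cyclases, Adcy3 alone had lines that did not overlap, against 15.1% of all genes tested.

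The Adcy3 count is uncertain in part, because its exons overlap those of Cenpo on the opposite strand and the sources do not say whether strand was used in counting. Of the 31-base stretches of Adcy3, 20.1% also occur in Cenpo or Gm34788. Cenpo, a centromere protein gene, was at 2.44 ± 0.209 RPKM in the controls, and 2.24 ± 0.271 RPKM in the Nf2 KO libraries, a log2 fold change of -0.09 (SE 0.11, adjusted p = 0.948 with limma).

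Adcy7, a form common in blood cells, lies on the plus strand of chromosome 8 (GRCm38, 88272403 to 88329962). Its levels were 3.53, 1.71 and 2.98 RPKM in the controls, and 1.35, 0.685 and 2.001 RPKM in the Nf2 KO libraries. Replicate 2 was the lowest in both lines, the lines overlapped only because control replicate 2 lay below the highest Nf2 KO library, and each Nf2 KO library was below the control of its own number. The means were 2.74 ± 0.936 and 1.35 ± 0.658 RPKM (SD, n = 3 each), a ratio of 0.492. The log2 fold change was -0.68 (SE 0.27, adjusted p = 0.467 with limma), and with the replicate block the adjusted p in limma was 0.0295 (SE 0.12). Without replicate 2 of both lines and without a block, the log2 fold change was -0.68 and the adjusted p in limma 0.0708. A fit chosen after seeing the data, voom on recovered reads as described below, gave -0.90 with an adjusted p of 0.451 with no block. Without replicate 2 of both lines that voom fit gave -0.80 and 0.0218, and no other voom leave-out called Adcy7. Since Adcy7 is common in blood cells, macrophage markers are given beside it. Their sum ranged from 6.69 to 8.26 RPKM in the controls, and from 5.39 to 7.45 RPKM in the Nf2 KO libraries, with 7 of 8 under 1 RPKM in every library and Cd68 at 5.08 to 8.10 RPKM, and their part in the Adcy7 difference was not tested.

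Adcy9, the widespread form with low forskolin sensitivity, lies on the minus strand of chromosome 16 (GRCm38, 4287529 to 4420498). Its levels were 1.36, 1.28 and 0.883 RPKM in the controls, and 1.14, 0.648 and 0.650 RPKM in the Nf2 KO libraries. Each Nf2 KO library was below the control of its own number, while the lines overlapped. The means were 1.17 ± 0.254 and 0.812 ± 0.282 RPKM (SD, n = 3 each). The log2 fold change was -0.27 (SE 0.16, adjusted p = 0.731 with limma, 0.196 with the replicate block). Adcy9 sat at the filter, with 3 of 6 libraries above 1 RPKM.

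**Figure D3:**
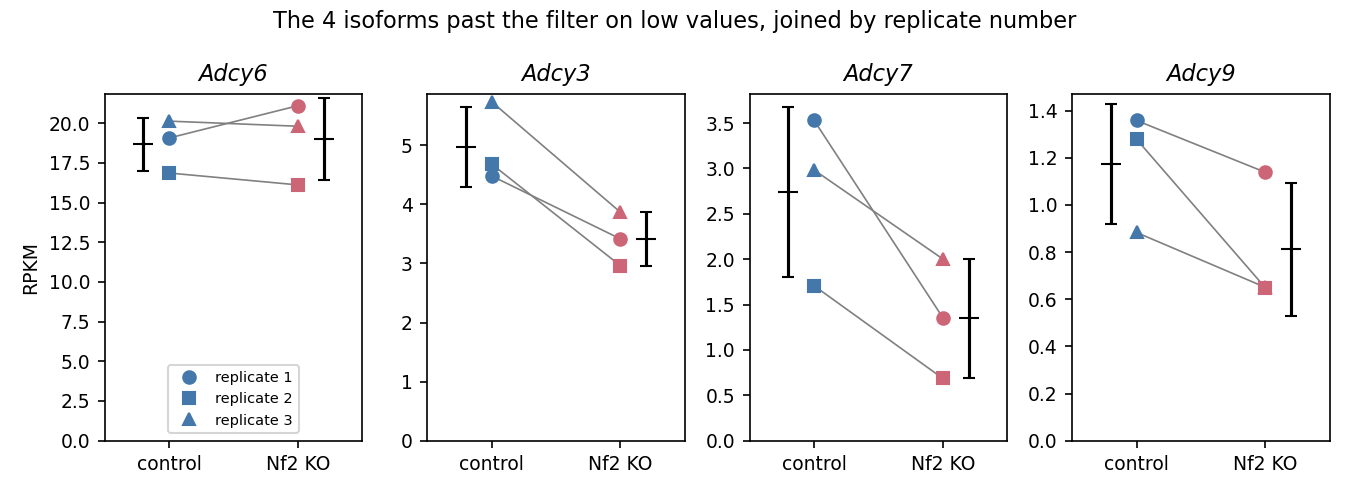
RPKM (axes from 0) of the 4 tested isoforms, with 1 point per library, gray lines joining the same replicate number, and black bars for the mean ± SD of 3 libraries. The Adcy3 and Adcy7 lines all slope down from control to Nf2 KO, as do those of Adcy9, while the Adcy6 means of 18.7 and 19.0 RPKM lie level.

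The other 5 isoforms rested on few reads. For them, RPKM multiplied by exon length and depth gave whole reads in 30 of 30 values, within 0.05 of a read, so read counts can be given. Of the genes under the filter with any value above 0, 9.42% had lines that did not overlap, and of these 5 cyclases 2 did not, Adcy1 being higher and Adcy5 lower. The study lists both genes under a pathway that it called on these same samples, so the choice of these genes is not independent of the samples.

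Adcy1, the Ca2+/calmodulin-stimulated cyclase of neurons and a gene known from synaptic plasticity, lies on the plus strand of chromosome 11 (GRCm38, 7063489 to 7178506). Its levels were 0.00593, 0.0295 and 0.0274 RPKM in the controls, from 1, 7 and 21 reads. In the Nf2 KO libraries they were 0.238, 0.161 and 0.321 RPKM, from 54, 39 and 294 reads. All 3 Nf2 KO libraries were above all 3 controls. The exact 95% Poisson intervals, which cover counting error only, reached at most 0.0607 RPKM in a control library and went no lower than 0.115 RPKM in a Nf2 KO library.

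The means of Adcy1 were 0.0209 ± 0.0130 and 0.240 ± 0.0799 RPKM (SD, n = 3 each), and the exact two-sided permutation p was 0.1, the smallest that 3 against 3 allows. Even the higher level was 1.26% of that of Adcy6 in the same libraries. A fit chosen after seeing the data, limma's voom on the recovered reads of the 18176 genes with at least 10 reads, gave a log2 fold change of 3.52 (SE 0.54, 95% interval 2.28 to 4.76), a fold of 11.5, with an adjusted p of 0.0243. With limma on log2(RPKM + 1), the settings that kept Adcy1 did not call it. The adjusted p in limma was 0.253 with no filter, 0.155 with a filter of 0.1 RPKM and 0.246 with the replicate block and no filter. Adcy1 passed the filter of 0.1 RPKM only through the Nf2 KO libraries, where it was high, so that filter is not independent of the difference tested. In the voom fit 1.5% of genes were called and Adcy1 was 1 of 8 cyclases entered that passed. The same fit with the replicate block gave a log2 fold change of 3.44 and an adjusted p of 0.00122.

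Leaving out libraries kept the fold of Adcy1 between 8.67 and 14.8 but took the voom adjusted p over the threshold in most cases. It was 0.0740 without control replicate 1, 0.134 without its replicate 3, and 0.0921 and 0.114 without Nf2 KO replicates 1 and 3. It was 0.310 without replicate 1 of both lines and 0.444 without replicate 3 of both, while it stayed at 0.0231 without control replicate 2, 0.0142 without Nf2 KO replicate 2 and 0.00162 without both.

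Adcy1 is best known from neurons, so neuron markers are given beside it. The 7 neuron markers in the table summed to 5.14 to 9.81 RPKM in the controls, and 9.45 to 13.4 RPKM in the Nf2 KO libraries. Map2, a microtubule protein gene, accounted for the higher sum, at 2.65, 3.40 and 4.59 RPKM against 10.2, 8.08 and 10.9 RPKM (log2 fold change 1.25, adjusted p = 0.0399 with limma). Stmn2 went the other way, at 1.23, 1.09 and 3.03 RPKM against 0.454, 0.648 and 1.10 RPKM (adjusted p = 0.541 with limma, 0.0462 with the replicate block). Rbfox3 was listed at 0 in 5 of 6 libraries and 4 of the 7 stayed under 1 RPKM throughout. The part of neuron-type RNA in the Adcy1 difference was not tested.

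Adcy2, a beta-gamma-stimulated form, lies on the minus strand of chromosome 13 (GRCm38, 68620043 to 68999541). It overlaps exons of the opposite-strand Gm35161 and shares 3.83% of its 31-base stretches with that gene. Levels of Adcy2 were 0.547, 0.326 and 1.54 RPKM in the controls, and 0.486, 0.209 and 0.562 RPKM in the Nf2 KO libraries, on 17 to 398 reads. control replicate 3 stood above the other 5 libraries, and the lines overlapped (exact two-sided permutation p = 0.5, n = 3 each). Voom on the recovered reads gave a log2 fold change of -0.93 with an adjusted p of 0.741, which became -1.17 and 0.0191 with the replicate block. Without control replicate 3, and with no block, the voom log2 fold change was 0.04, and it was -0.36 when replicate 3 was left out of both lines. Each Nf2 KO library was below the control of its own number. With the block, voom called 4 of 8 cyclases (Adcy1, Adcy2, Adcy3 and Adcy7), where 10% of all genes entered were called.

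Adcy5, the cyclase of heart and striatum, lies on the plus strand of chromosome 16 (GRCm38, 35154877 to 35305738). Its levels were 0.0931, 0.0587 and 0.0477 RPKM in the controls, from 9, 8 and 21 reads, and 0.0231, 0.0289 and 0.0248 RPKM in the Nf2 KO libraries, from 3, 4 and 13 reads. The lines did not overlap, but the Poisson intervals of single libraries did, from 0.0295 to 0.0730 RPKM in control replicate 3 and from 0.00476 to 0.0675 RPKM in Nf2 KO replicate 1. The means were 0.0665 ± 0.0236 and 0.0256 ± 0.00298 RPKM (SD, n = 3 each, exact two-sided permutation p = 0.1). In voom the log2 fold change was -1.14 with an adjusted p of 0.370, and 0.152 with the replicate block.

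Adcy8, the other Ca2+/calmodulin-stimulated form of neurons, lies on the minus strand of chromosome 15 (GRCm38, 64697084 to 64922296) and had 0.00911, 0.0712 and 0.0441 RPKM in the controls, and 0.0949, 0.0763 and 0.0302 RPKM in the Nf2 KO libraries. These were 1 to 22 reads a library, the lines overlapped, and voom gave a log2 fold change of 0.39 (adjusted p = 0.954). Adcy4, on the minus strand of chromosome 14 (GRCm38, 55769057 to 55784095), had 0, 1 and 3 reads in the controls and 1, 0 and 2 reads in the Nf2 KO libraries. No library exceeded 3 reads, which is the limit that a count of 0 allows, so no fold is given. Adcy10, the soluble cyclase that bicarbonate activates and that is no member of the membrane family, was listed at 0 in 5 libraries and had 1 read in Nf2 KO replicate 3.

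**Figure D4:**
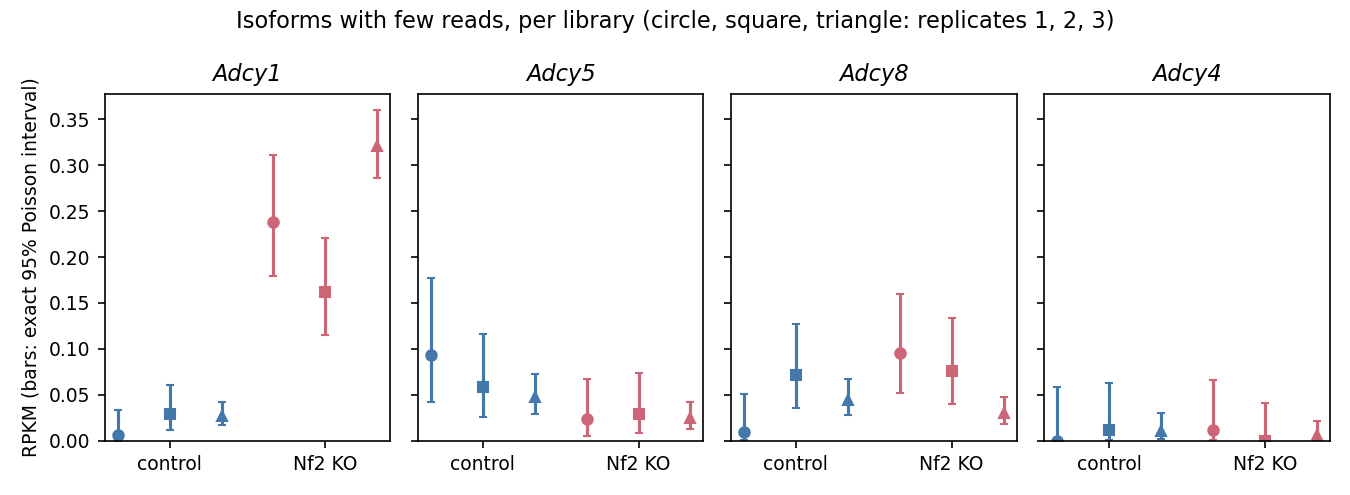
RPKM (axis from 0, shared) of the 4 isoforms with the fewest reads, per library, with exact 95% Poisson intervals as bars. The 3 Nf2 KO libraries of Adcy1, at 0.161 to 0.321 RPKM, lie above its controls and above all libraries of Adcy5, Adcy8 and Adcy4.

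Promoter sequences from RefSeq (GRCm38.p6), from 250 bases before a start to 50 after it, were found for 7 of the 9 members in 10 windows, and Adcy6 and Adcy8 had none in the table. The 250 bases before the start are printed for 3 members that passed a test in any fit and whose stretch held no annotated exon, so that the makeup of their start regions can be compared. Adcy1 is at chr11:7063183-7063432, plus strand, Adcy2 at chr13:68999542-68999791, minus strand, and the first of 3 starts of Adcy7 at chr8:88282742-88282991, plus strand. Capitals mark GC boxes (GGGCGG on either strand) and the short cAMP-element core TGACG on either strand, and the last capitals of Adcy2 begin a GC box that runs past the start.
Adcy1: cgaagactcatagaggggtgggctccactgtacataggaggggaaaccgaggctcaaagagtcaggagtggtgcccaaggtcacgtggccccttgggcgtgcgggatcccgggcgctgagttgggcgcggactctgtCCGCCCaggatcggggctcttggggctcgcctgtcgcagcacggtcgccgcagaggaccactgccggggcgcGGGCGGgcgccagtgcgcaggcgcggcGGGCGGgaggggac
Adcy2: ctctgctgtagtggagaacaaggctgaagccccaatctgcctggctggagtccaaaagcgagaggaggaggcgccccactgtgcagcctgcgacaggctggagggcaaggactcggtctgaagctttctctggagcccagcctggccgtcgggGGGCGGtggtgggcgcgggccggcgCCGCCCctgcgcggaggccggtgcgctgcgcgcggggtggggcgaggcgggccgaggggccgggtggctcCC
Adcy7: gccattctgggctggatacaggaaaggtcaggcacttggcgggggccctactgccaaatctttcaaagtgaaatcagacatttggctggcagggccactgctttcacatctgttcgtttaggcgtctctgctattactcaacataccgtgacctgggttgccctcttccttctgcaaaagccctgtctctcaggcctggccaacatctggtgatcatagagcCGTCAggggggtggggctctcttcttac

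The printed stretch of Adcy1 holds 26 CpG pairs and that of Adcy2 23, against 5 in that of Adcy7. In whole 300-base windows, Adcy1 has 37 CpG pairs, Adcy2 32, Adcy4 16, Adcy5 44 and Adcy9 42, the 2 starts of Adcy3 have 33 and 7, the 3 starts of Adcy7 have 6, 5 and 4, and the median of 32851 mouse promoters is 7. GC boxes number 5 for Adcy1, 3 for Adcy2, 4 for Adcy5, 5 for Adcy9 and 1 each for the first Adcy3 and the third Adcy7 window, with none in the other windows, and 35.7% of all promoters hold at least 1. The full cAMP response element TGACGTCA was in none of the 10 windows and in 1.79% of all promoters. Its core TGACG was in the first Adcy7 window and the Adcy9 window and in 20.8% of all promoters, a count that includes the full element. The TEAD element GGAATG, searched because TEAD factors carry YAP and TAZ to DNA downstream of Merlin, was in the second Adcy3 window and in 14.7% of all promoters. All searches covered both strands, a match is only a string of letters, and gene-level values do not tell which start was used.

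The rest of the cAMP pathway was taken from lists of 96 genes, of which 93 were in the table and 54 were tested. With limma, none was higher and 2 were lower in the Nf2 KO libraries, where 1.06% of all genes tested were called. With the replicate block 2 were higher and 5 lower, where 7.53% of all genes were called and 4.54% were called lower. Below, a gene said to pass only with the block did so among these 2 fits, and other settings are not covered by those words. With no filter on low values, 0 of the 93 listed genes in the table passed with limma, with or without the block (27 and 18 had an unadjusted p under 0.05). The shares of all genes in these 2 fits were not counted, so these counts may not be particular to the pathway. The median log2 fold change of the 54 was -0.05, with 21 positive and 33 negative. The count of 2 was 0 without control replicate 1 or 3, without Nf2 KO replicate 1, or without replicate 1 or 3 of both lines, and 1 without Nf2 KO replicate 3.

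Upstream of the cyclases, 3 of 18 listed Gs-coupled receptors were tested and 1 was lower, with 1.06% of all genes called. Adora2b, the low-affinity adenosine receptor, was at 14.9, 10.1 and 11.2 RPKM in the controls, and 2.31, 2.08 and 3.49 RPKM in the Nf2 KO libraries. The lines were far apart, at 12.0 ± 2.51 and 2.63 ± 0.759 RPKM (SD, n = 3 each). The log2 fold change was -1.85 (SE 0.19, adjusted p = 0.0200 with limma). Adora2b was also the highest of these receptors, and its level in the controls was between those of Adcy6 and Adcy3.

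Of 7 listed G protein alpha subunits that act on adenylate cyclase, 5 were tested and none passed with limma, 2 having an unadjusted p under 0.05 (1097 of 11067 over all genes tested). Gnao1, which encodes a Go subunit, was at 3.99 ± 0.0370 RPKM in the controls, and 2.17 ± 0.488 RPKM in the Nf2 KO libraries (SD, n = 3 each). Its log2 fold change of -0.67 passed only with the block (adjusted p = 0.0932 with limma, 0.0233 with the block). Gnai1, an inhibitory subunit picked out after its values were seen because its fitted log2 fold change was the highest among the tested genes of the lists, was at 5.26, 15.7 and 6.69 RPKM against 25.3, 24.0 and 17.5 RPKM. Its lines did not overlap, and it missed the threshold in both fits, with a log2 fold change of 1.31 (SE 0.36, adjusted p = 0.233 with limma, 0.0501 with the block). Gnai2, the most abundant of the subunits, was at 119 ± 14.7 and 132 ± 8.95 RPKM (SD, n = 3 each, adjusted p = 0.840 with limma). Of the 9 cyclase regulators, 7 were tested and none passed in either fit, and the highest, Calm2, a calmodulin gene, was at 221 ± 26.4 and 227 ± 21.6 RPKM.

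Downstream, 6 of 16 phosphodiesterases, the enzymes that break down cAMP, were tested. Pde8a, a high-affinity cAMP phosphodiesterase, was at 3.23, 3.96 and 4.34 RPKM in the controls, and 1.39, 0.705 and 1.44 RPKM in the Nf2 KO libraries. It was lower in every Nf2 KO library, with a log2 fold change of -1.16 (SE 0.18, adjusted p = 0.0421 with limma). Pde4a, at 3.73 ± 0.268 against 2.60 ± 0.169 RPKM, passed only with the block (adjusted p = 0.174 with limma, 0.0282 with the block). Pde7a, the highest of the list, went the other way at 5.43 ± 1.23 against 7.42 ± 1.81 RPKM and also passed only with the block (adjusted p = 0.688 with limma, 0.0350 with the block).

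No gene of the protein kinase A (7 tested of 9), anchoring protein (9 of 11), other effector (2 of 9) or CREB family lists (8 of 8) passed in either fit. The highest of each were Prkar1a at 90.2 ± 11.2 and 84.7 ± 6.92 RPKM, Akap12 at 82.4 ± 22.4 and 96.4 ± 23.3 RPKM, Rapgef3 at 3.24 ± 0.874 and 2.83 ± 0.868 RPKM, and Atf1 at 22.7 ± 2.79 and 19.96 ± 2.08 RPKM (SD, n = 3 each). Of 10 genes that cAMP is known to induce, 8 were tested. The growth factor gene Areg was at 3.22 ± 0.748 and 0.755 ± 0.430 RPKM and passed as lower only with the block (log2 fold change -1.28, adjusted p = 0.0553 with limma, 0.00298 with the block). The kinase gene Sik1 was at 2.97 ± 0.124 and 4.59 ± 0.628 RPKM and passed as higher only with the block (log2 fold change 0.49, adjusted p = 0.138 with limma, 0.0322 with the block). Dusp1, the highest gene of the list, was at 22.6 ± 8.48 and 23.1 ± 6.76 RPKM.

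**Figure D5:**
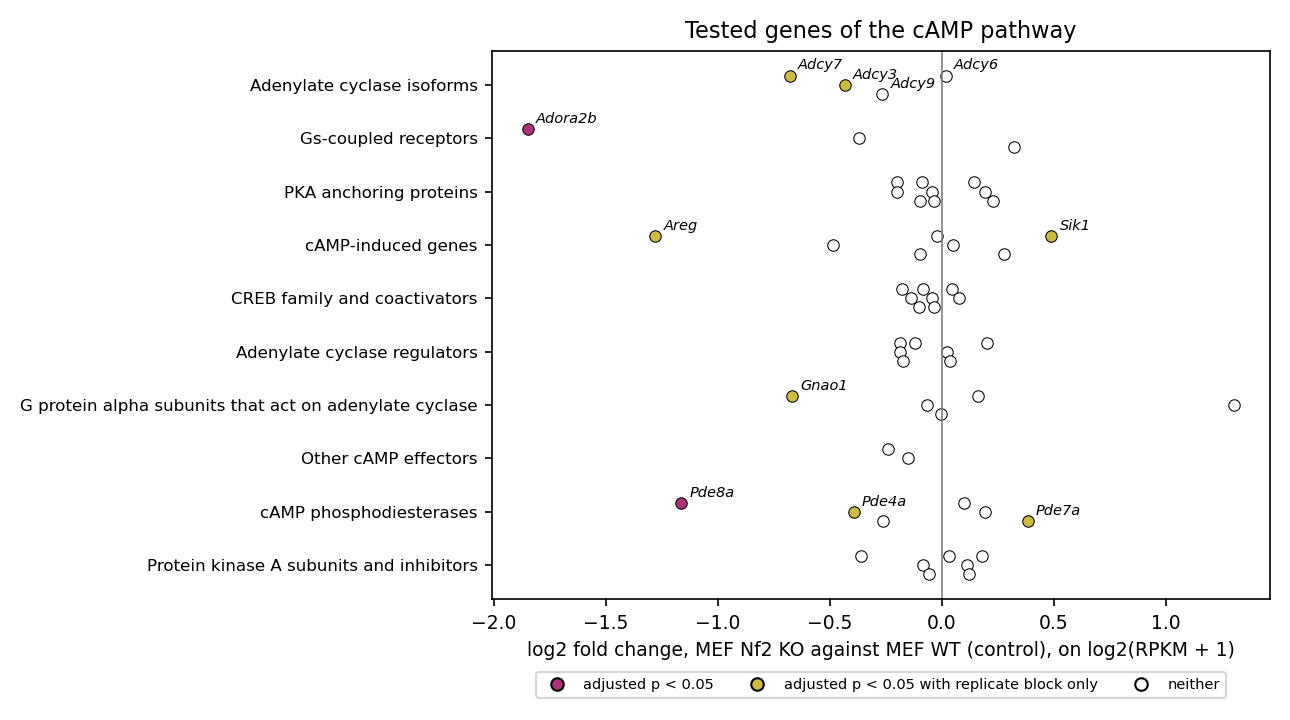
Log2 fold change of the Nf2 KO libraries against MEF WT (control) on log2(RPKM + 1), for the tested cyclases and the 54 tested genes of the pathway lists, with 1 point per gene and color for the test passed. Adora2b at -1.85 and Pde8a at -1.16 pass without the block, while Adcy3 and Adcy7 are among the genes that pass only with it.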

How the data were processed

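RNA was sequenced from 6 MEF libraries, 3 labelled MEF WT (control) and 3 labelled MEF Nf2 KO, and each library was assigned to its group by its title. GENEWIZ made the libraries and the analysis, and the authors deposited RPKM values for 26231 genes in each library. The unit was inferred from the values, the processing notes name the build mm10, and the aligner, the counter and the use of strand are not given in the sources used here. With exon lengths from GENCODE vM21 (GRCm38), 83.2% to 85.2% of values of up to 20 reads were whole within 0.05 of a read (10% if spread evenly), which gave the depths. The sources used here do not say if pairs were counted.

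Values were set to log2(RPKM + 1) and genes that reached 1 RPKM in 3 or more libraries were tested two-sided with limma 3.58.1 in R 4.3.3 (lmFit, eBayes with trend and robust settings) with no covariate, after the unpaired test of the study's methods. Deviations of same-numbered libraries correlated at 0.552, 0.819 and 0.516 for replicates 1, 2 and 3, so the labels' numbers were treated as pairs and the block fit is given where it changes a call. Alternatives were no filter, filters of 0.1 and 5 RPKM, a pseudocount of 0.1, median centring, quantile normalization, the library mark of replicate 3 as a covariate, voom on recovered reads, and each library or replicate number left out. Voom on genes with at least 10 reads was added after seeing the data. The limma fit on log2(RPKM + 1) was tested on simulated data with and without the replicate block. The voom fits and the other alternatives were not. Libraries of a line differed by more than counting noise, with 16.1 to 122 as chi-square per degree of freedom, so none was counted as the same library deposited again, which does not show that they came from separate cultures.

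The members and the gene lists were chosen with earlier results of these data known. Named are Nf2, the 9 members, Adcy10, every listed pathway gene past the threshold in either fit, the highest gene of each list, and the 3 genes most like Adcy6, of which 1 is not reported here. Any other gene is named because it overlaps a member or stands beside a result, apart from Gnai1, which was picked after its values were seen. Figures used matplotlib 3.10.9.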

Additional observations from a re-analysis of the deposited data

How the results depend on the processing

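The count of adenylate cyclases past the threshold was 0 of 4 with limma (2 members had an unadjusted p under 0.05). It was 2 of 4 with the replicate block. With voom on genes of 10 or more reads it was 1 of 8, and 4 of 8 with that fit and the replicate block. It was 0 in the other 19 settings, which include every leave-out in limma. The leave-outs in that voom fit are not in this count, and some of them called Adcy1 or Adcy7. The count for the cAMP pathway was 2 of 54 tested genes. It became 1 of 54 with a pseudocount of 0.1, 0 of 93 with no filter and 1 of 28 with a filter of 5 RPKM. It was 7 of 54 with the replicate block and 0 of 93 with the replicate block and no filter. With the library mark of replicate 3 as a covariate it was 1 of 54. Voom on genes of 10 or more reads gave 5 of 85, and 19 of 85 with the replicate block. Over all genes, 7.53% were called with the replicate block, 1.5% with voom on genes of 10 or more reads and 10% with that fit and the block. For the fits with no filter the share over all genes was not counted. The pathway count was 3 of 54 in limma without trend and robust settings, and 3 of 54 with voom on recovered reads under the filter of 1 RPKM. Leaving out libraries or replicate numbers in limma gave pathway counts of 0 to 3. The cause of these moves was not tested.

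The log2 fold change of Adcy6 turned negative in limma without MEF WT (control) replicate 2 (-0.050), MEF Nf2 KO replicate 1 (-0.058), MEF Nf2 KO replicate 3 (-0.014) or replicate 1 of both lines (-0.042), its leave-outs ranging from -0.058 to 0.13, and in voom on genes of 10 or more reads it was then -0.050, -0.054, -0.0078 and -0.043. That of Adcy8 in voom was -0.048 without MEF WT (control) replicate 1 and -0.34 without replicate 1 of both lines, while it was 0.39 with all libraries, 1.17 without MEF Nf2 KO replicate 3 and 1.37 without replicate 3 of both lines, and that of Adcy2 was 0.042 without MEF WT (control) replicate 3. Adcy3 and Adcy7 stayed lower in every setting run, from -0.51 to -0.34 and from -0.90 to -0.46 over the leave-outs in limma. Adcy9 ranged from -0.37 to -0.20 over the 4 leave-outs that kept it past the filter. The Adcy6 share ranged from 69.1% to 71.7% over the leave-outs and was 72.2% by reads.

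Depth limits the low isoforms: a single read of Adcy1 was worth 0.00593 RPKM in the shallowest library and 0.00109 RPKM in the deepest.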
